A study of Mus musculus with 6 samples.

Results

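Replication licensing was examined in 10 genes, namely the 6 subunits of the MCM2-7 helicase (Mcm2 to Mcm7) and 4 factors that load the helicase, restrain its loading or act with it once it is loaded (Cdc6, Cdt1, Gmnn and Mcm10). All 10 were found by symbol among the 45706 genes of the deposited count table, and all 10 were among the 15184 genes with enough counts to be tested. The family was taken as a whole by function, but it was selected on the same difference between genotypes that is described here, with Mcm5 set against its partners because of its value in that comparison. The differences between genotypes are therefore a description of these genes and not a test of the choice.

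Hematopoietic stem and progenitor cells (LSK cells, Lin- Sca-1+ c-Kit+) had been sorted from bone marrow of male C57BL/6 mice, 3 per genotype, with on average 25000 cells per sort and 1 RNA-seq library per mouse. The Ctrl mice were Setd1b HET (FD/+; RC/+) and the cKO mice Setd1b HOM (FD/FD; RC/+), so that both groups carried the tamoxifen-inducible Cre-ERT2 at Rosa26 (RC), which acts in almost all tissues, and at least 1 conditional allele (FD) of the H3K4 methyltransferase gene Setd1b. All mice received tamoxifen by gavage at 4.5 mg per day, for 4 days and, after a pause of 3 days, for 2 more, and were killed 3 days after the last dose. The sample labels give this schedule, while the study's text gives a smaller number of doses of the same amount. The study calls them littermates, without saying which mice share a litter. They were 16 weeks old, except for cKO mouse AH74 at 17 weeks. The controls thus shared Cre, tamoxifen and the loss of 1 Setd1b copy with the cKO mice.

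Before S phase, the origin recognition complex together with Cdc6 and Cdt1 places MCM2-7 rings onto DNA, which is called licensing. Each ring holds 1 copy of each of the subunits. In S phase the ring becomes active with Cdc45 and GINS, while Geminin (Gmnn) binds Cdt1 and prevents new loading. Stem cells in the marrow are mostly quiescent and the progenitors of the LSK gate divide more often, so that these transcripts also follow the share of cycling cells.

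Between 13003573 and 21277519 reads per library were counted on genes. The library numbers in the table header form 2 series, with Ctrl mouse AI03 and cKO mice AI02 and AI55 in the first and Ctrl mice AI54 and AI56 and cKO mouse AH74 in the second. Setd1b itself lay between 194 and 223 CPM (counts scaled to a common library size of 1000000 with TMM factors) in Ctrl and between 272 and 314 CPM in the libraries labelled cKO. Its log2 fold change was 0.46, with an adjusted p of 0.0015 (edgeR). The total count of the targeted gene was thus higher in cKO, while the exon that Cre removes is not counted on its own. Per the study, removing that exon shifts the reading frame, so the total count does not show whether the knockout took place. For this cKO model the study reports complete recombination by PCR in selected blood cell populations. It also reports loss of Setd1b mRNA by qRT-PCR, in organs and in multipotential progenitors, and of the protein by western blot in liver. The qRT-PCR used a primer in the exon that Cre removes, so it does not measure the rest of the transcript. The assays in sorted blood cells were done weeks after induction and not at the 3 days after the last dose of these libraries. The gate genes Kit (395 to 514 CPM) and Ly6a, which encodes Sca-1 (35.8 to 56.3 CPM), were expressed in all libraries and the T cell gene Cd3e was at or below 0.06 CPM. Neither Kit nor Ly6a passed the threshold, and nor did Cd34 and Flt3, which divide the LSK compartment.

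The promoters of Mcm5 and Mcm6 share a feature that the choice of genes did not use, and are shown with that of Cdt1, in which it was not found. Given are the 250 bases before the RefSeq start (GRCm38.p6), from 5′ to 3′ on the strand of the gene. Capitals mark words bound by E2F factors, which drive transcription at the entry into S phase.

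Mcm5, chr8:75109259-75109508, plus strand: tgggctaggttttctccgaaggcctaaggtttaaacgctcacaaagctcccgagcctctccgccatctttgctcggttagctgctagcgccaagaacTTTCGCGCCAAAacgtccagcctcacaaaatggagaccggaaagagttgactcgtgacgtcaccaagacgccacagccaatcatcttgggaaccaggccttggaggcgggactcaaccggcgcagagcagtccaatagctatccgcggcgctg

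Mcm6, chr1:128359706-128359955, minus strand: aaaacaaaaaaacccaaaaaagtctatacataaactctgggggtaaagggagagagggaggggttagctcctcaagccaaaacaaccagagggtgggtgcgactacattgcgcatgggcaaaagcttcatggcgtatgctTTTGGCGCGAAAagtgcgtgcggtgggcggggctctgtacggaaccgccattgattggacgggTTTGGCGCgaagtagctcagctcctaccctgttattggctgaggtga

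Cdt1, chr8:122567765-122568014, plus strand: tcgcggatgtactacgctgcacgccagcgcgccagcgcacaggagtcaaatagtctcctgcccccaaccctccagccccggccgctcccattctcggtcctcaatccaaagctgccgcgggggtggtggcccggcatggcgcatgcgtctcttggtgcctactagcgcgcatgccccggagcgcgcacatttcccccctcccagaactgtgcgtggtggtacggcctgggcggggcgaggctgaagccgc

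The words searched, on both strands, were TTTCGCGC, TTTGGCGC, TTTCCCGC and TTTGCCGC. At least 1 of them was present in 611 of 32851 promoters of this length (1.86%). Of the 8 licensing genes with an entry, 4 held one (Mcm5, Mcm6, Mcm7 and Cdc6). Mcm7 had a further entry without such a word. The bases of the Cdc6 entry and of both Mcm7 entries lie inside the gene as GENCODE M21 places it, downstream of its start. For Cdc6 they begin at 98907901 and the gene at 98907801. These entries thus do not show the bases before the GENCODE start. In the Mcm5 promoter TTTCGCGC on the gene's strand overlaps TTTGGCGC on the other strand, 142 to 153 bases before the start, and in the Mcm6 promoter the same pair overlaps in the mirrored order, 99 to 110 bases before the start. Mcm6, which has this pair in common with Mcm5, had a log2 fold change of -0.10. The CCAAT box, searched as CCAAT on both strands, was present in 33.8% of all promoters and in those of 6 licensing genes, with Cdc6 and Cdt1 as the exceptions. These are matches of letters and not measured binding sites.

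Mcm5 (ENSMUSG00000005410, chromosome 8 from 75109569 to 75128439, plus strand) was the licensing gene with the largest difference, and it did not differ evenly among the mice. It was at 343, 347 and 361 CPM in Ctrl mice AI03, AI54 and AI56. In the libraries labelled cKO it was at 171 CPM in AI02, 330 CPM in AI55 and 155 CPM in AH74. Relative to the Ctrl mean these are 49.0%, 94.2% and 44.4%, so that 2 libraries were below 50% of the Ctrl level and the third was just below the Ctrl range. Counting error was small beside this, with 95% Poisson intervals (exact, counting error only) of 165 to 178 CPM in AI02, 321 to 339 CPM in AI55 and 149 to 162 CPM in AH74.

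The fitted log2 fold change of Mcm5 was -0.68 (standard error 0.19), 1.60-fold lower in the libraries labelled cKO, from 350 ± 9.39 to 219 ± 96.4 CPM (SD, n = 3 each). This mean describes none of the 3 cKO mice. Without AI55 the log2 fold change was -1.10, without AI02 it was -0.53 and without AH74 -0.48, and with AI55 in the comparison it missed the threshold whichever of the other 5 mice, controls included, was left out (adjusted p between 0.057 and 0.16, edgeR). DESeq2 gave the same fold change with an adjusted p of 0.29. The difference was -0.53 within the first library series, where AI02 and AI55 stand on either side, and -1.19 within the second. The low libraries AI02 and AH74 belong to different series, and AH74 is also the 1 older mouse. With the library series as a covariate the log2 fold change of Mcm5 was -0.81 (adjusted p = 0.018, edgeR). The part of age in these values was not tested, nor that of series in the split among cKO mice.

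**Figure D1:**
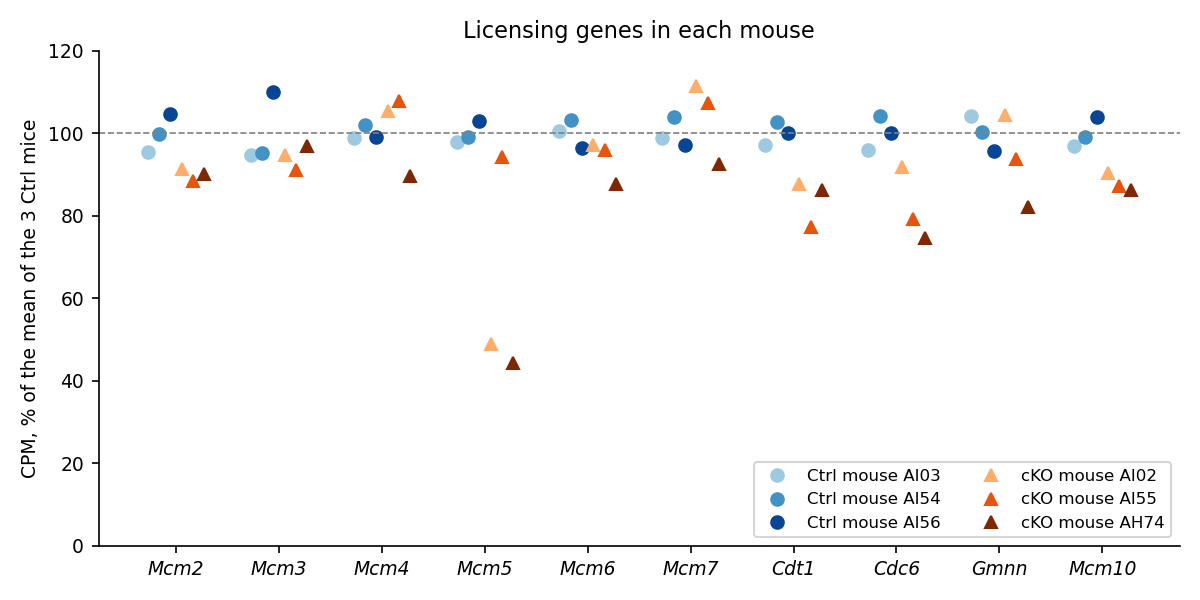
CPM of the 10 licensing genes in each mouse as a percentage of the mean of the 3 Ctrl mice (dashed line at 100); circles are Ctrl and triangles cKO mice. Mcm5 lies at 49.0% in AI02 and 44.4% in AH74 and at 94.2% in AI55, whereas no value of another licensing gene lies below 74%.

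AI55 did not stand with the controls in a pair of genes that differed strongly between the genotypes. Dntt, the terminal transferase of lymphoid precursors, was at 3.62, 5.97 and 8.42 CPM in AI02, AI55 and AH74 and between 219 and 549 CPM in Ctrl. Mpo, the myeloperoxidase of granulocyte precursors, was at 460, 354 and 265 CPM in the same 3 mice and between 2299 and 2933 CPM in Ctrl. For both genes AI55 lay between the other cKO mice. Both were named because they differ strongly in a comparison that counts AI55 as cKO. Its place apart from Ctrl follows largely from that choice, and nothing is read from it about the knockout in AI55.

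The spread of Mcm5 was wide in the libraries labelled cKO and narrow in Ctrl. Its SD of log2 CPM was 0.59 among cKO mice, rank 23 of the 9522 genes with a mean of at least 10 CPM, for which the median SD was 0.10. In Ctrl its SD was 0.04, rank 8487. Among the 2023 genes with a mean of at least 100 CPM, Mcm5 ranked 7 in cKO. The other licensing genes had SDs between 0.02 and 0.17 in cKO, with Gmnn at the upper end.

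**Figure D2:**
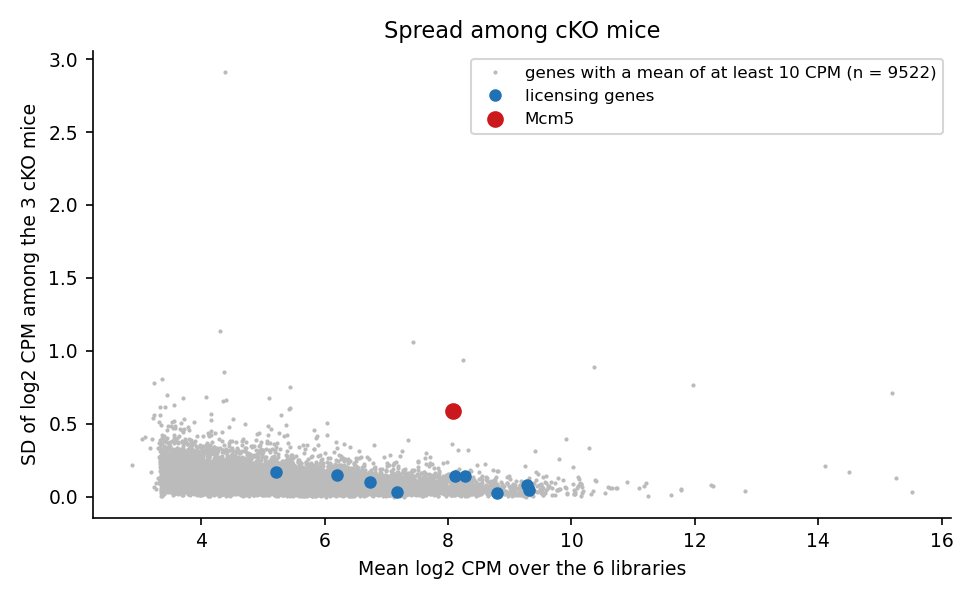
SD of log2 CPM among the 3 cKO mice against the mean log2 CPM over the 6 libraries, for 9522 genes (grey), the licensing genes (blue) and Mcm5 (red). Mcm5 has an SD of 0.59, and the other licensing genes lie at or below 0.17.

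Of the MCM2-7 subunits, Mcm5 changed its share of the summed transcripts most, and it did so in 2 mice. Per kilobase of exon, Mcm5 made up 14.7%, 14.5% and 14.7% of the summed MCM2-7 level in Ctrl mice AI03, AI54 and AI56. It made up 14.5% in cKO mouse AI55, 7.91% in AI02 and 7.66% in AH74. On the log2 scale Mcm5 lay below the mean of its 5 partners by -0.33 ± 0.02 (SD, n = 3) in Ctrl and by -1.04 ± 0.57 (SD, n = 3) in cKO, a difference of -0.71. This ratio is formed inside each library and does not depend on scaling. Its value was -0.38 in AI55, against -0.35 to -0.30 in Ctrl, and -1.35 and -1.37 in AI02 and AH74. The shares of Mcm4 and Mcm7, parts of the same sum, lay between 10.6% and 11.2% and between 9.31% and 10.2% in Ctrl, and between 11.6% and 12.8% and between 10.7% and 12.1% in cKO.

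**Figure D3:**
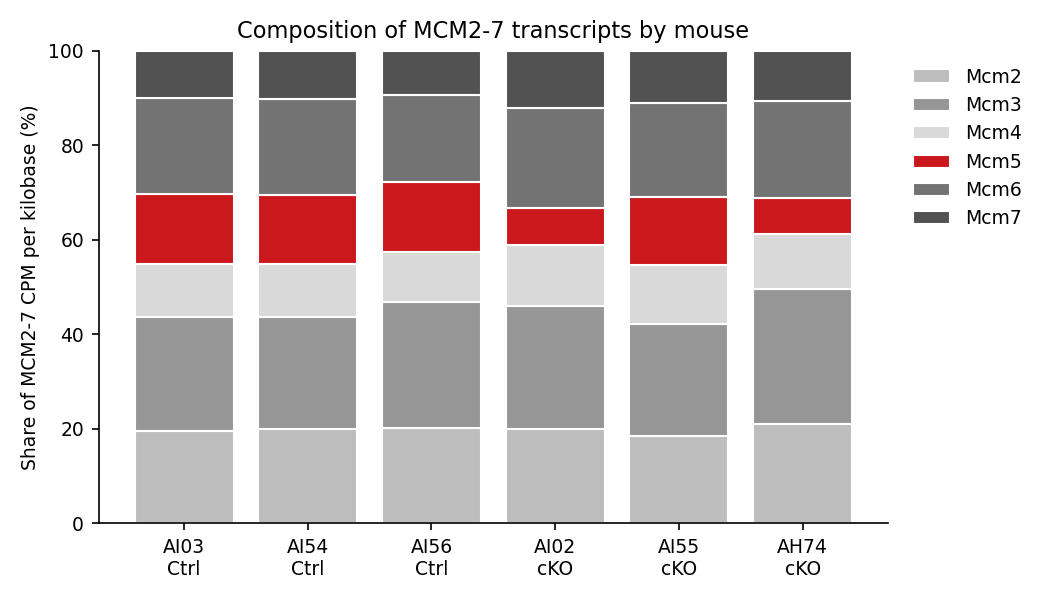
Share of each subunit in the summed MCM2-7 level per kilobase of exon (%), for the 3 Ctrl and 3 cKO mice. The Mcm5 segment (red) takes 14.5% to 14.7% in the Ctrl mice and AI55, and 7.91% and 7.66% in AI02 and AH74.

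The mean log2 CPM of the 5 partners was 8.78 ± 0.03 (SD, n = 3) in Ctrl and 8.73 ± 0.07 (SD, n = 3) in cKO, with overlap between the groups. Mcm2 was at 446, 466 and 489 CPM in Ctrl mice AI03, AI54 and AI56 and at 427, 413 and 421 CPM in cKO mice AI02, AI55 and AH74. Its groups did not overlap, but with a log2 fold change of -0.15 (standard error 0.06) it was not past the threshold. Mcm3 (595 to 720 CPM over all libraries), Mcm4 (247 to 297 CPM), Mcm6 (564 to 663 CPM) and Mcm7 (281 to 339 CPM) overlapped between the groups, with log2 fold changes of -0.09, 0.01, -0.10 and 0.05. Under the 15 alternatives of processing none of these 5 partners passed the threshold.

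Levels per kilobase of exon in Ctrl ran from Mcm3 (174 ± 15.2 CPM per kilobase) over Mcm2 (138 ± 6.38), Mcm6 (138 ± 4.65), Mcm5 (102 ± 2.74) and Mcm4 (76.7 ± 1.37) to Mcm7 (68.7 ± 2.35; SD, n = 3 each). Mcm2 and Mcm6 did not differ beyond their spread. In the libraries labelled cKO the means were 64.0 ± 28.2 CPM per kilobase for Mcm5, 77.4 ± 7.54 for Mcm4 and 71.3 ± 6.85 for Mcm7. The mean of Mcm5 joins unlike mice. Mcm5 lay below Mcm4 and Mcm7 in AI02 (50.1 against 80.8 and 76.5 CPM per kilobase) and in AH74 (45.4 against 68.8 and 63.6). In AI55 it lay above them (96.4 against 82.7 and 73.8). The exon length counts every annotated isoform, which lowers the level per kilobase of genes with many isoforms.

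The loading factors differed less than Mcm5 but more evenly among mice, again with lower values in the libraries labelled cKO. Cdt1, which brings the helicase to the origin, was at 113, 119 and 116 CPM in Ctrl mice AI03, AI54 and AI56. It was at 102, 89.5 and 99.9 CPM in cKO mice AI02, AI55 and AH74, all below every Ctrl mouse, with a log2 fold change of -0.26 (standard error 0.07). Here AI55 was the lowest library. Cdc6, the ATPase that recruits Cdt1 and the helicase, was at 78.3, 84.9 and 81.6 CPM in the Ctrl mice and at 74.8, 64.7 and 60.9 CPM in the cKO mice in the same order. Its log2 fold change was -0.29 (standard error 0.08), without overlap.

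Mcm10, which is not part of the ring and helps to activate it, was at 148, 152 and 159 CPM in Ctrl mice AI03, AI54 and AI56 and at 138, 133 and 132 CPM in cKO mice AI02, AI55 and AH74. Its log2 fold change of -0.19 (standard error 0.06) was not past the threshold, although the groups did not overlap. Gmnn, the inhibitor of Cdt1, lay between 36.5 and 39.8 CPM in Ctrl and between 31.4 and 39.9 CPM in cKO, with overlap and a log2 fold change of -0.10. The log2 ratio of Cdt1 to Gmnn overlapped between the groups, at 1.60 ± 0.09 in Ctrl and 1.44 ± 0.19 in cKO (SD, n = 3 each).

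Of the 10 licensing genes, 3 (Mcm5, Cdt1 and Cdc6) were lower past the threshold of an adjusted p of 0.05 in edgeR's quasi-likelihood test and 0 were higher. The groups did not overlap in 5 of the 10 genes (Mcm2, Mcm5, Cdt1, Cdc6 and Mcm10). Cdc6 was the gene just inside the threshold (0.047) and Mcm10 the one just outside (0.088). Of all 15184 genes tested, 7.67% were past the threshold, 3.79% lower and 3.88% higher, and 27.3% had no overlap between the groups. The median log2 fold change of the 10 genes was -0.12, against 0.00023 over all genes tested. With the library series as a covariate Cdt1 missed the threshold (adjusted p = 0.062, edgeR), which left 2 genes, and with DESeq2 Mcm5 missed it. Because the same comparison led to the choice of these genes, nothing is read from these counts. They were also unstable, since leaving out 1 mouse gave 0 or 1 licensing gene past the threshold in each of 6 fits. Without AI55 this was Mcm5, without AI03 Cdt1 and without AI02 Cdc6.

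**Figure D4:**
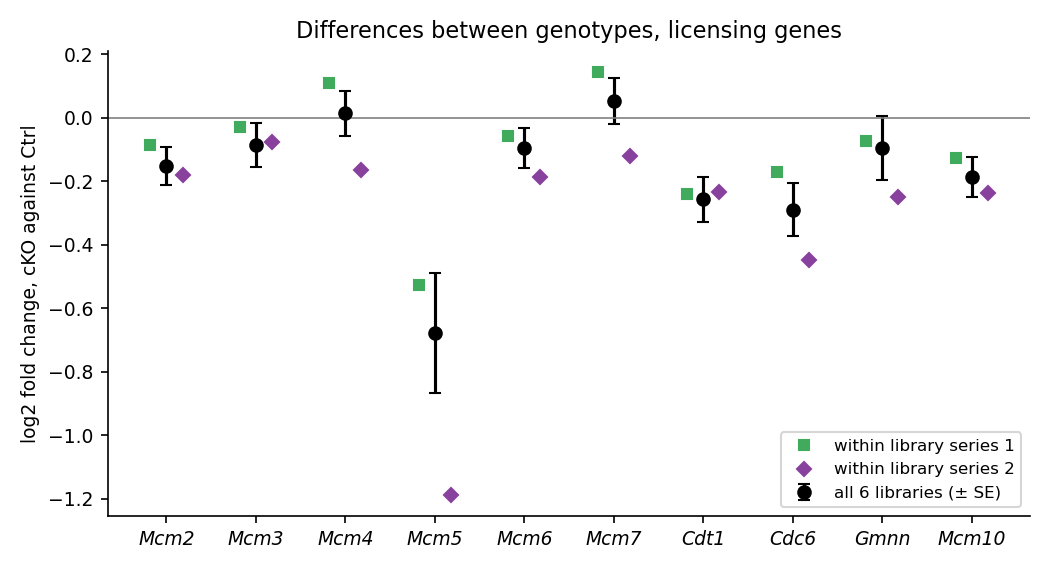
Log2 fold change of the licensing genes, cKO against Ctrl, from all 6 libraries (black, ± standard error) and as the difference of mean log2 CPM within each library series (green squares and purple diamonds, no error). Mcm5 is at -0.68 overall and at -0.53 and -1.19 within the series, and the other 9 genes lie between -0.29 and 0.05 overall.

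The other genes of DNA replication and its control were followed in 8 lists, chosen by function with earlier results known, with 122 of 125 genes tested. Of these, 4 were lower past the threshold, a share near the 3.79% over all genes tested, 0 were higher, and the median log2 fold change was -0.03. The origin recognition complex had 0 of 6 genes past the threshold, with log2 fold changes between -0.24 and 0.03 and no overlap between the groups for 4 of them (27.3% over all genes tested). Of 14 genes of helicase activation, among them Cdc45 and the GINS subunits, Recql4 fell, a helicase required for the start of replication (log2 fold change -0.38, adjusted p = 0.035, edgeR). In the list of further MCM proteins and partners (4 tested genes, with Mcm8 and Mcm9) and in that of licensing control (9 tested genes, with the Cdt1 ubiquitin ligase genes Skp2, Cul4a, Ddb1 and Dtl) 0 genes passed. The Geminin relatives Gmnc and Mcidas had 0 counts in every library, and Mcmdc2 had at most 7.

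At the replication fork and in nucleotide supply 0 of 37 genes passed the threshold, at log2 fold changes between -0.27 and 0.16. The sliding clamp gene Pcna lay between 139 and 160 CPM in Ctrl and between 139 and 173 CPM in cKO (log2 fold change 0.10, adjusted p = 0.52, edgeR). Genes of the replication checkpoint (10 genes) and of G2 and mitosis (23 genes) likewise had 0 past the threshold. Mki67, a marker of cycling cells, lay between 1543 and 1807 CPM in Ctrl and between 1627 and 1768 CPM in cKO (log2 fold change -0.01, adjusted p = 0.97, edgeR). The median of the G2 and mitosis list was 0.02.

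Among 19 genes of the E2F, DP, pocket protein and MuvB families, 3 fell and 0 rose (3.79% and 3.88% over all genes tested). The list as a whole did not fall, with a median log2 fold change of -0.008 and 10 of the 19 genes negative. The groups did not overlap in 11 genes (27.3% over all genes tested). Some of these were higher in cKO, such as Tfdp2 (log2 fold change 0.27), which was not past the threshold. E2f1, an activator of S phase genes, was at 51.3, 52.2 and 52.4 CPM in Ctrl mice AI03, AI54 and AI56 and at no more than 41.7 CPM in each of cKO mice AI02, AI55 and AH74 (log2 fold change -0.33, standard error 0.08, adjusted p = 0.019, edgeR). E2f8, a repressor of E2F targets, fell from between 185 and 210 CPM to between 145 and 166 CPM (log2 fold change -0.37, standard error 0.07, adjusted p = 0.0046, edgeR). E2f4, which acts with the pocket proteins, was lower too, at a log2 fold change of -0.25 and an adjusted p of 0.034 (edgeR). In these 3 genes, named because they passed the threshold, all cKO mice lay below all Ctrl mice, with AI55 beside AI02 and AH74. E2f8 stayed past the threshold in all 15 alternatives, whereas E2f1 and Recql4 missed it without 5 of the 6 mice, each left out in turn, and E2f4 without 4. E2f4 also missed it with the library series as a covariate (adjusted p = 0.052, edgeR).

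**Figure D5:**
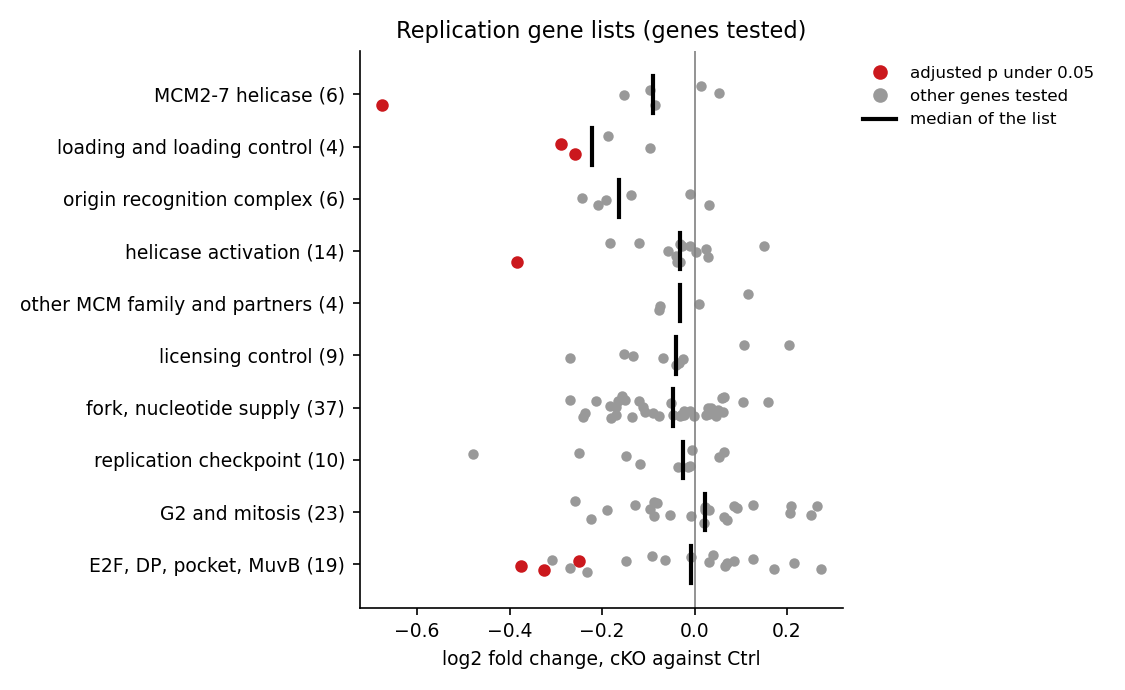
Log2 fold change, cKO against Ctrl, of the genes tested in the lists of replication genes, with the number of genes in brackets; red points are past the threshold, black bars are the medians of the lists. The 7 red points are Mcm5, Cdt1, Cdc6, Recql4, E2f1, E2f4 and E2f8, all of them lower in the libraries labelled cKO.

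Markers of cell types within the gate moved with the genotype. Of 10 genes enriched in long-term stem cells, 6 rose, with summed levels of 308 to 345 CPM in Ctrl and 400 to 458 CPM in cKO. All 8 granulocyte and monocyte genes fell (2897 to 3491 against 479 to 783 CPM), as did 4 of 8 erythroid genes (259 to 271 against 121 to 142 CPM) and 3 of 6 genes of lymphoid priming (596 to 1239 against 260 to 336 CPM). For B cells (Vpreb1) and plasma cells (Jchain) 1 gene each fell, for T cells 0 passed. Their part in the differences of Cdt1, Cdc6 and the E2F genes was not tested. The 4 summed ranges given above did not overlap between the groups, with AI55 included in cKO. In RNA of a sorted population, fewer cells of a type and less RNA per cell cannot be told apart. The study describes the LSK composition at this time as largely comparable to controls, without showing the data. By qRT-PCR in sorted subsets it reports lower Klf1 in long-term stem cells of cKO mice. It likewise reports lower Mpo in multipotential progenitors and lower Ighm in lymphoid-primed progenitors.

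Within 500 kb of Mcm5 on either side, 4 of 9 other genes of the table were tested, and Hmgxb4 was the only one of them above 10 CPM. Hmgxb4, 77591 bases away, was at 65.3, 68.0 and 67.8 CPM in AI02, AI55 and AH74 and between 65.9 and 73.0 CPM in Ctrl. Hmox1, the heme oxygenase gene 8980 bases away, was low in all cKO mice (0.54, 1.84 and 1.12 CPM in AI02, AI55 and AH74 against 3.77 to 5.82 CPM in Ctrl, log2 fold change -2.01, adjusted p = 0.0038, edgeR). Among these low cKO values that of AI55 was the highest, though far from the Ctrl range. Tom1 was at 0.60, 0.76 and 0.14 CPM in the same cKO mice and between 0.48 and 1.15 CPM in Ctrl, with overlap. The pseudogene Gm7984 lay between 2.81 and 3.72 CPM in all libraries. Rasd2, too low to be tested, was at or below 0.57 CPM. Tom1, Rasd2 and the cKO values of Hmox1 lay near the floor of counting, so that nothing is read from the order of the mice in them. Cdt1 is on the same chromosome and was lowest in AI55. These neighbours were looked up after the values of Mcm5 had been seen.

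The genes whose log2 CPM over the 6 libraries was most like that of Mcm5, among 9521 genes with a mean of at least 10 CPM, were Alg2 (Pearson r = 0.99), Golm1 (0.99), Ndufa13 (0.98), Zfp324 (0.98) and Ptger3 (0.97). Only 6 libraries enter this measure, and the log2 fold changes of these genes lay between -0.20 and -0.06. Alg2 had 33.4, 39.5 and 32.8 CPM in AI02, AI55 and AH74 against 39.8 to 41.2 CPM in Ctrl. Among the other 5 subunits, Mcm4 and Mcm7 followed each other most closely over the 6 libraries (r = 0.92), a description over libraries that share series and genotype.

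A pair of licensing genes starts close to another gene on the opposite strand. Prkdc, which encodes the catalytic subunit of DNA-PK, starts 466 bases from Mcm4, and its log2 fold change was 0.20 with an adjusted p of 0.18 (edgeR). Ap4m1 starts 420 bases from Mcm7 and had 0.19 (adjusted p = 0.19, edgeR). Of the 4426 exon bases of Mcm7, 321 are shared with Ap4m1 and 64 with Cops6 on the other strand, and the counting used strand. The microRNA genes Mir25 and Mir93, which share exon bases with Mcm7 on its own strand, had 0 counts in every library.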

How the data were processed

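LSK cells of 3 Ctrl and 3 cKO mice were profiled by RNA-seq. Per the file headers and the study's methods, the authors mapped 75-base single reads to mm10 with GSNAP. Those with 1 position were assigned to genes, on the gene's strand, by featureCounts 1.5.0 with Ensembl gene models. The deposited values are raw counts, without normalization or pooling. Symbols came from GENCODE M21 (98.8% of genes named).

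Counts were tested with edgeR 4.0.16 (R 4.3.3; TMM, filterByExpr, quasi-likelihood test, genotype only), with Benjamini-Hochberg adjustment over 15184 genes and a threshold of 0.05. Log2 CPM used a prior count of 2. The standard error was obtained from the F statistic, as |log2 fold change| over its root. The procedure was tested on simulated data.

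Alternatives were DESeq2 1.42.0 and its size factors, other filters, removal of abundant transcripts, of length or GC trends, the library series as a covariate, differences within each series, a prior count of 0.5, summed reads per kilobase for the partners of Mcm5, a threshold of 0.01, and leaving out each mouse. Members, lists and alternatives were chosen with earlier results of these data known. The genes named were the 10 members, Setd1b, up to 3 genes per list and direction past the threshold, Pcna, Mki67, head-to-head neighbours within 1000 bases and the 5 genes most correlated with Mcm5. Others were named after their values had been seen.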

Additional observations from a re-analysis of the deposited data

How the results depend on the processing

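The lower level of Mcm5 kept its direction under every alternative run, but its call did not. DESeq2 gave -0.68 (adjusted p = 0.29), and leaving out 1 mouse gave -1.10 (without AI55) to -0.48 (without AH74), past the threshold in 1 of these 6 fits. Within the second library series it was -1.19. Mcm5 relative to its partners lay between -1.04 and -0.54 over all alternatives. The mean of the 5 partners was 0.016 within the first library series and -0.15 within the second, so that its direction was not stable. At an adjusted p under 0.01, 513 genes remained past the threshold in all, 0 of them licensing genes and 1 of the 8 lists. With 1 mouse left out, between 604 and 1125 genes passed in all, between 0 and 1 licensing genes, and between 1 and 5 genes of the 8 lists. In these lists DESeq2 called 7 genes, the test without a filter on low counts 10 and the removal of the length trend 8. Cdt1 and Cdc6 were past the threshold in 8 and 9 of 15 alternatives. No paired analysis was possible because the labels carry no replicate numbers and name no litters, although the study describes Ctrl and cKO mice as littermates. With 3 mice per group, an exact permutation test of a single value cannot go below 0.1, two-sided.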

Other observations

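Other genes also differed widely among mice of one genotype, by the measure of spread that set Mcm5 apart. Mtmr9, which encodes a myotubularin-related protein, was at 34.9, 31.7 and 91.3 CPM in Ctrl mice AI03, AI54 and AI56 and at 33.6, 72.6 and 26.9 CPM in cKO mice AI02, AI55 and AH74, so that 1 mouse of each genotype was high. Cdk5rap1 was at 12.5, 19.0 and 27.4 CPM in the same Ctrl mice and at 26.1, 10.7 and 12.3 CPM in the same cKO mice. Unlike Mcm5, both genes were also spread widely in Ctrl. Their SD of log2 CPM in Ctrl was 0.84 for Mtmr9 and 0.57 for Cdk5rap1, against 0.04 for Mcm5. In Mtmr9 AI55 was again the cKO mouse apart from the other 2, as it was in Mcm5, whereas in Cdk5rap1 it was AI02. Both genes were picked from the 22 genes with a wider spread than Mcm5 after their values had been seen, and the reason for these levels was not tested.

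The immediate early genes Fosb and Fos were among the same 22 genes. Fosb was at 6.43, 13.8 and 31.6 CPM in AI02, AI55 and AH74 and between 26.4 and 28.3 CPM in Ctrl.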
